A study of Mus musculus with 14 samples.

Results

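The 29 genes of cholesterol and fatty acid synthesis were followed through RNA-seq, a microRNA pulldown and histone mark peaks in LEPC cells, a mouse liver-cancer study's cell line of strain C57BL/6 at 3 passages. The 29 members were a named list, set out by step and looked up by coordinates among 18493 protein-coding gene symbols: 15 sterol enzymes (6 of the mevalonate steps and 9 from squalene to cholesterol), 6 genes of sterol sensing and transport, and 8 fatty acid enzymes. The control cells have the genotype scr, another line overexpresses miR-93-5p, and the last overexpresses a mutant of miR-93-5p, whose sequence is not given in the sources used here. The series design adds the word biotin to the miR-93-5p group. RNA-seq and the pulldown of mRNA that interacts with the microRNA each had 1 library for each of these 3 conditions, while H3K4me3, H3K27me3 and H3K9me3 had 1 library each in scr and miR-93-5p and none in mutant. No value therefore has a replicate error, no test was possible, and differences below are differences between single libraries.

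Cells build cholesterol from acetyl-CoA through mevalonate, isoprenoid units and squalene, and fatty acids from citrate-derived acetyl-CoA through malonyl-CoA, with later elongation and desaturation. Both branches are switched on by the SREBP transcription factors, which the escort protein SCAP carries out of the endoplasmic reticulum when sterols are low and which INSIG proteins hold back when sterols are high. SREBP2 is best known for the sterol branch and SREBP1 for the fatty acid branch, and liver is a main site of both.

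The microRNA and a few promoters are shown first, since the levels below refer to them. miR-93-5p comes from the minus strand at chr5:138165574-138165596 (GRCm38.p6, RefSeq). It is 23 nucleotides long, and its seed, bases 2 to 8, is in capitals. RefSeq lists other mature mouse microRNAs with this seed, among them miR-17-5p and miR-106b-5p, printed for comparison.
miR-93-5p: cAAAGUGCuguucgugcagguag
miR-17-5p: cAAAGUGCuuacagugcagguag
miR-106b-5p: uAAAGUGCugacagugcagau

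SREBP-driven promoters are known to carry a CCAAT box, bound by NF-Y, near a sterol regulatory element. The 150 bases before the start site of 5 members spread over the 2 branches are printed with CCAAT or its reverse complement ATTGG in capitals, and with 1 match to TCACNCCAC, searched on both strands, in Hmgcs1. These windows lie at chr13:119690201-119690350 on the plus strand for Hmgcs1, chr13:8885456-8885605 (plus) for Idi1, chr10:76531455-76531604 (plus) for Lss, chr8:64733579-64733728 (minus) for Msmo1 and chr11:120824548-120824697 (minus) for Fasn, all in GRCm38.p6.
Hmgcs1: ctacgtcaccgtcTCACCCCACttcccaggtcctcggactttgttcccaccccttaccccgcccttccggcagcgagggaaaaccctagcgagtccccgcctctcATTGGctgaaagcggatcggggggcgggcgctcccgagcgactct
Idi1: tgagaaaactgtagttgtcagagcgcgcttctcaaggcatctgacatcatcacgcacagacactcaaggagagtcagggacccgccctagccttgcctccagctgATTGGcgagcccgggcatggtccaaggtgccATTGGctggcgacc
Lss: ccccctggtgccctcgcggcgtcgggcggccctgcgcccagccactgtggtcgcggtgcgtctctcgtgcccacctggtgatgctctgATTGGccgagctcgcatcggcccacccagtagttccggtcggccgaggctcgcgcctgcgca
Msmo1: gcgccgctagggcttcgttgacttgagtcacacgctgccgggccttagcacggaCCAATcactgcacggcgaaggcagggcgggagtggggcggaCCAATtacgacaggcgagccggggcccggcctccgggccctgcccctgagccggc
Fasn: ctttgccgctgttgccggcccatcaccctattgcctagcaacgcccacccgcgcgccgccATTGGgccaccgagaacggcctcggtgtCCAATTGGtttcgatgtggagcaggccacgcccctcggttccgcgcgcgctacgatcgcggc

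In windows of 250 bases before to 50 after the start site, CCAAT on either strand was found in 17 of the 22 members that have such a window (77.3%), against 41.1% of 27025 genes. Counted by window, it was in 18 of the 29 windows of members, against 37.4% of all 32851 windows. It was in 7 of 7 members of the squalene-to-cholesterol steps, 4 of 5 of the mevalonate steps, 4 of 5 of sensing and transport and 2 of 5 fatty acid enzymes. Of these members, Acaca, Acat2, Elovl6, Fads2 and Scap had none. In Fasn a CCAAT and an ATTGG overlap. The sterol element letters TCACNCCAC, present in 1.24% of windows, occurred in Hmgcs1 alone, 137 bases before its start. A match is a string of letters and does not show a bound site.

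Of the 29 members, 25 had an mm9 gene locus. Hmgcs1, Mvd, Tm7sf2 and Scd2 did not, and their RNA-seq levels and peaks were not analysed here. A matched RNA-seq locus in all 3 libraries was found for 24 of the 25, leaving out Scd1, and these were compared with 8425 genes in all. In the order scr, miR-93-5p, mutant, used below wherever 3 values follow each other, the RNA-seq libraries held 14589704, 15301761 and 19513879 fragments, as implied by the deposited bounds, and the pulldown libraries 5322228, 3814082 and 5855469. In the pulldown the miR-93-5p library stood apart, with loci of a median span of 2121 bp against 9176.5 and 9086 bp in scr and mutant. Fragments are counting units only, and no interval below covers differences between cultures.

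The hepatocyte markers were checked and partly go against a mature hepatocyte in all 3 lines. Apoa1, Fga, Ahsg and Tat had no RNA-seq fragments in any library, and albumin was without a locus in miR-93-5p and held 52 fragments in scr and 79 in mutant. Keratin 8 (Krt8) stood at 658, 230 and 283 FPKM and Hnf4a at 40.6, 7.22 and 27.4. All 6 compared hepatocyte markers of the 14 listed were below scr in miR-93-5p, with a median log2 ratio of -1.46, and 5 of 6 were below mutant. Endothelial and adipocyte markers had no fragments in any library, and Csf1r was the only one of 7 leukocyte markers compared (7.63, 1.16 and 1.82 FPKM). Of 6 biliary and progenitor markers 3 were compared and went both ways, with log2 ratios over scr of -3.65 for Cdh1, 0.39 for Sox9 and 1.02 for Spp1. Of 7 mesenchymal markers Vim alone was compared, at -0.58 over scr in FPKM and -4.73 in fragments. The part of these markers in the lipid gene values was not tested. In bulk RNA, fewer cells of a type and less RNA per cell cannot be told apart.

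In RNA-seq, sterol enzymes were lower in the miR-93-5p library than in scr and also lower than in mutant, whereas fatty acid enzymes were lower than scr in both overexpression libraries alike. On the scale of log2(FPKM + 1), the median ratio of miR-93-5p over scr was -0.59 for 12 sterol enzymes, -0.58 for 6 fatty acid enzymes and 0.11 for the 6 genes of sensing and transport, against 0.03 for all genes. Against mutant the same medians were -0.49, -0.07 and 0.01, against 0.01 for all genes. The mutant library itself had medians of -0.23, -0.50 and 0.10 over scr. Comparisons with scr share that library. In implied fragments, described below, the medians over scr were -0.41 for sterol and -0.31 for fatty acid enzymes, and the fatty acid median over mutant was 0.12.

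FPKM was lowest of the 3 conditions in miR-93-5p for 11 of 12 sterol enzymes, with Mvk the exception, for 3 of 6 fatty acid enzymes and for 2 of 6 sensing genes, against 27.9% of all genes. FPKM was highest of the 3 in scr for 9 of 12 sterol enzymes, 6 of 6 fatty acid enzymes and 2 of 6 sensing genes, against 37.1% of all genes. In implied fragments miR-93-5p was lowest for 9 of 12 sterol and 1 of 6 fatty acid enzymes (30.6% of all genes). On that measure scr was highest for 7 of 12 and 4 of 6 (36.3%). The step was mostly modest in size: 4 of 24 members (Fdft1, Sqle, Fads1 and Fads2) had an FPKM level in miR-93-5p at least 2-fold below scr, where 3.86% of all genes did, and no member was 2-fold or more above, where 2.97% were. In implied fragments 3 members were as far below scr (Fdft1, Nsdhl and Dhcr7; 7.69% of all genes) and 3 as far above it (Cyp51, Fads1 and Fads2; 7.58%), so the one-sided count is that of FPKM. In FPKM, Fdft1 alone was at least 2-fold below both other libraries, as were 0.878% of all genes. In implied fragments 3 members were (Fdft1, Nsdhl and Dhcr7), against 3.78% of all genes.

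**Figure D1:**
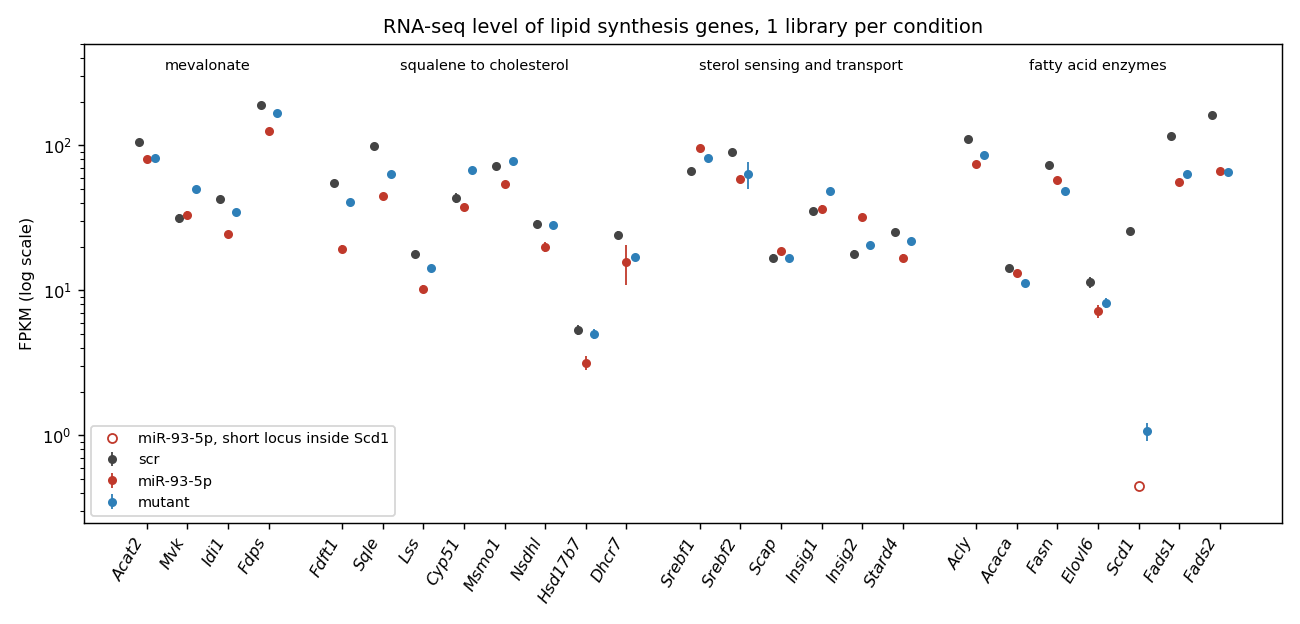
RNA-seq level of each member in FPKM (log axis) in scr (grey), miR-93-5p (red) and mutant (blue), 1 library each, with the bounds the files give as bars. miR-93-5p is the lowest point for 11 of the 12 sterol enzymes, scr is the highest point for the 6 compared fatty acid enzymes, and the open circle is the only locus inside Scd1 in miR-93-5p.

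The deposited bounds of each FPKM give a second reading, covering the error within 1 library. The miR-93-5p interval lay wholly below that of scr for 18 of 24 members, where this held for 28.9% of all genes, and wholly above it for Srebf1 and Insig2 (35% of all genes). It lay below that of mutant for 14 of 24 (22%) and above it for Srebf1, Insig2, Acaca and Fasn (26%). Below both at once were 12 of 24 (10.7%), of which 9 were sterol enzymes, 2 fatty acid enzymes (Acly and Fads1) and 1 the transporter Stard4. The mutant interval was below scr for 15 of 24 members (30.6%), among them 6 of 6 fatty acid enzymes and 7 of 12 sterol enzymes.

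FPKM depends on the length of the transcript model, which each library assembled for itself. The number of fragments per FPKM agreed between the libraries within 1.5-fold for 13 of 24 members and for 64.0% of all genes. In these 13, miR-93-5p was below scr in both FPKM and fragments for 10 (42.1% of all such genes), made up of 7 of 8 sterol enzymes and 3 of 3 fatty acid enzymes. The remaining 3 were Srebf1 and Scap, above scr in both, and Mvk, at ratios of 0.08 and -0.00. For the other 11 members the FPKM ratio and the fragment ratio can differ widely, and for Sqle, Cyp51, Dhcr7, Insig1, Insig2, Stard4, Fads1, Fads2 and Fasn both ratios over scr are given where they are described.

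The mevalonate steps were represented by 4 compared genes. Acat2, the cytosolic acetyl-CoA acetyltransferase at the entry, stood at 106 FPKM (100 to 111) in scr, 80.1 (76 to 84.2) in miR-93-5p and 81.4 (77.5 to 85.3) in mutant. It was lower in both overexpression lines by like amounts. Mevalonate kinase, Mvk, stood at 31.5 FPKM (29.3 to 33.7) in scr, 33.3 (31 to 35.5) in miR-93-5p and 49.7 (47 to 52.3) in mutant. Its scr and miR-93-5p intervals overlap, and mutant is high. Idi1, the isomerase that makes dimethylallyl diphosphate (mm9 chr13:8884851-8891641), stood at 42.3 FPKM (40.9 to 43.8) in scr, 24.4 (23.3 to 25.5) in miR-93-5p and 34.5 (33.4 to 35.7) in mutant. No 2 of these intervals overlap, with log2 ratios for miR-93-5p of -0.77 over scr and -0.49 over mutant, and of -0.85 and -0.66 in fragments. Fdps, which makes farnesyl diphosphate, the branch point to sterols and prenyl groups, stood at 189 FPKM (180 to 198) in scr, 126 (120 to 132) in miR-93-5p and 166 (159 to 174) in mutant. Its log2 FPKM ratio over mutant was -0.40, while in fragments it was -0.02.

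Fdft1, squalene synthase and the first enzyme committed to sterols, showed the lowest FPKM ratio over scr of the 24 compared members (mm9 chr14:63763989-63796630). It stood at 55.3 FPKM (53 to 57.5) in scr, 19.3 (18 to 20.5) in miR-93-5p and 40.6 (39 to 42.2) in mutant. The 3 intervals are apart, and miR-93-5p is 2.87-fold below scr and 2.11-fold below mutant in FPKM. In log2 the ratios were -1.47 and -1.04, and in fragments -1.38 and -1.10 with counting errors of 0.06 each.

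Sqle, squalene epoxidase, a rate-limiting step after Fdft1, stood at 98.5 FPKM (93.8 to 103) in scr, 44.8 (42.5 to 47.1) in miR-93-5p and 63.6 (60.6 to 66.5) in mutant. Its log2 ratio over scr was -1.12 in FPKM but -0.25 in fragments. The Sqle model ended 905 bp past the gene end in miR-93-5p and 898 bp past it in mutant, but 93 bp inside it in scr. Lss, which closes the ring to lanosterol, stood at 17.8 FPKM (16.9 to 18.8), 10.2 (9.54 to 10.8) and 14.2 (13.5 to 15), in the order scr, miR-93-5p and mutant. All 3 intervals are apart, as for Idi1 and Fdft1.

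The demethylation steps that follow were lower in miR-93-5p than in mutant in FPKM, but for Cyp51 not in fragments. Cyp51, lanosterol demethylase, stood at 43.6 FPKM (40 to 47.2) in scr, 37.7 (36.5 to 38.9) in miR-93-5p and 67.6 (64.5 to 70.7) in mutant. Mutant is the high library in FPKM. The fragment ratio of miR-93-5p over scr, 2.66, has the opposite sign to the FPKM ratio of -0.20. Over mutant the log2 ratio of Cyp51 was -0.83 in FPKM and 1.39 in fragments, again of opposite sign. Msmo1, methylsterol monooxygenase, stood at 72.3 FPKM (69.8 to 74.8) in scr, 54.1 (52.1 to 56.2) in miR-93-5p and 77.8 (75.8 to 79.8) in mutant. Nsdhl, the sterol decarboxylase of the same complex, stood at 28.8 FPKM (27.1 to 30.4), 20.0 (18.4 to 21.6) and 28.4 (27.1 to 29.8). For Nsdhl, scr and mutant overlap and miR-93-5p is low, and the same holds for Hsd17b7, the ketosteroid reductase of that complex, at 5.33 FPKM (4.92 to 5.75), 3.17 (2.84 to 3.51) and 4.99 (4.61 to 5.38). The log2 FPKM ratios of miR-93-5p over mutant were -0.51 for Msmo1, -0.49 for Nsdhl and -0.52 for Hsd17b7. In fragments they were -0.76, -1.12 and -0.52. Over scr, Nsdhl was at -0.50 in FPKM and -1.04 in fragments.

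Dhcr7, which makes cholesterol from 7-dehydrocholesterol, stood at 24.2 FPKM (22.8 to 25.7) in scr, 15.7 (10.8 to 20.6) in miR-93-5p and 17.0 (16.2 to 17.7) in mutant. The wide miR-93-5p interval overlaps mutant but not scr. The miR-93-5p value implies 41 fragments, where scr has 1092 and mutant 2007. Its log2 ratio over scr was -0.59 in FPKM and -4.49 in fragments.

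**Figure D2:**
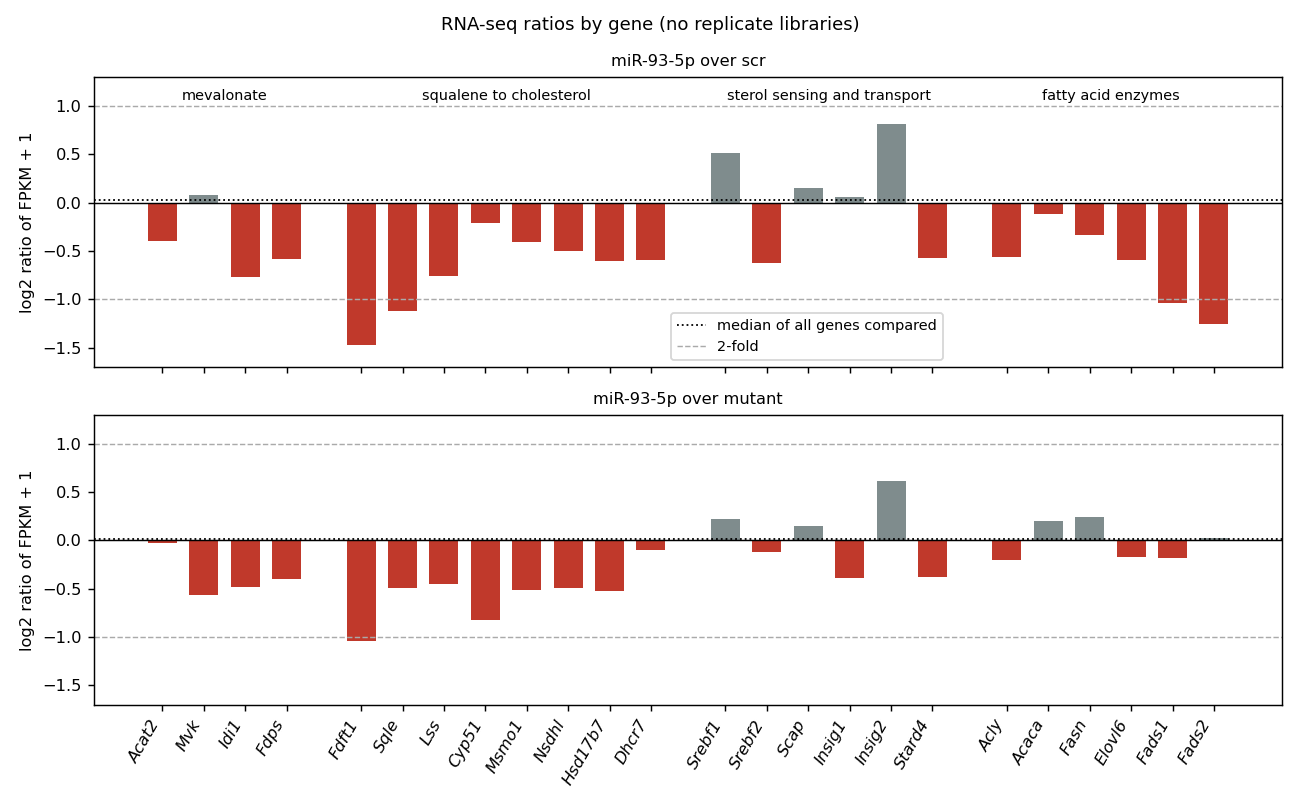
Log2 ratio of FPKM + 1 for the 24 compared members, miR-93-5p over scr in the upper panel and over mutant in the lower, red where miR-93-5p is lower. The dotted line is the median of all genes (0.03 and 0.01) and the dashed lines mark 2-fold; the sterol bars point down in both panels apart from Mvk over scr, and the fatty acid bars mainly in the upper one.

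Among the regulators the SREBP genes differed in opposite directions. Srebf2 stood at 90.1 FPKM (86.5 to 93.7) in scr, 58.4 (55.6 to 61.1) in miR-93-5p and 63.5 (50.2 to 76.7) in mutant, so both overexpression libraries lie below scr and their intervals overlap. The wide mutant interval implies 92 fragments, against 2518 in scr. Srebf1 stood at 66.3 FPKM (63.6 to 68.9) in scr, 95.2 (91.7 to 98.6) in miR-93-5p and 81.6 (78.7 to 84.5) in mutant. The order is the reverse of that of most enzymes, with a log2 ratio over scr of 0.52 in FPKM and 0.22 in fragments. Scap stood at 16.7 FPKM (15.6 to 17.7), 18.6 (17.5 to 19.7) and 16.7 (15.9 to 17.5), and its scr and miR-93-5p intervals overlap.

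The INSIG genes, whose proteins retain the SREBP-SCAP complex, also parted. Insig2 stood at 17.8 FPKM (16.7 to 18.9) in scr, 32.0 (30.6 to 33.4) in miR-93-5p and 20.5 (19.7 to 21.3) in mutant. Its log2 ratio over scr was 0.81 in FPKM, the highest of the 24 compared members on that scale, and 0.84 in fragments, whereas its ratio over mutant was 0.62 in FPKM and 0.03 in fragments. The Insig2 models of scr and miR-93-5p stopped 12617 bp inside the gene locus and that of mutant 3974 bp inside it. Insig1, itself an SREBP target, stood at 35.0 FPKM (33.7 to 36.4), 36.6 (34.7 to 38.6) and 48.4 (46.3 to 50.4), with mutant high in FPKM. In fragments scr was the high library. The log2 ratio of miR-93-5p over scr was -0.94 in fragments against 0.06 in FPKM, and that of mutant over scr -0.68 against 0.45. Stard4, a carrier of free cholesterol, stood at 25.3 FPKM (24.1 to 26.6), 16.7 (15.7 to 17.7) and 22.0 (21.3 to 22.7), with no overlap between libraries. For Stard4 the log2 ratio over scr of miR-93-5p was -0.57 in FPKM and -0.59 in fragments, but that of mutant was -0.20 in FPKM and 0.95 in fragments.

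The enzymes of fatty acid synthesis proper were lower in both overexpression libraries than in scr. Acly, which makes cytosolic acetyl-CoA from citrate, stood at 110 FPKM (106 to 114) in scr, 74.0 (71.2 to 76.8) in miR-93-5p and 85.4 (82.3 to 88.4) in mutant. Acaca, acetyl-CoA carboxylase, the step that commits carbon to fatty acids, stood at 14.3 FPKM (13.7 to 14.9), 13.2 (12.6 to 13.8) and 11.3 (10.9 to 11.8). Its scr and miR-93-5p intervals overlap, and mutant is lowest. Fasn, fatty acid synthase, stood at 73.0 FPKM (71.8 to 74.1) in scr, 57.6 (56.6 to 58.6) in miR-93-5p and 48.5 (46.3 to 50.6) in mutant, again lowest in mutant. Its log2 ratio over scr was -0.34 in FPKM and -0.36 in fragments for miR-93-5p, but for mutant -0.58 in FPKM and -3.41 in fragments. Elovl6, which elongates palmitate, stood at 11.4 FPKM (10.4 to 12.3), 7.19 (6.48 to 7.89) and 8.22 (7.56 to 8.87).

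The desaturases Fads1 and Fads2, which make polyunsaturated fatty acids and neighbour each other on chromosome 19, were about equally low in both overexpression libraries in FPKM. Fads1 stood at 116 FPKM (111 to 121) in scr, 56.0 (54.5 to 57.6) in miR-93-5p and 63.8 (60.8 to 66.8) in mutant. Fads2 stood at 161 FPKM (154 to 168), 66.7 (65 to 68.5) and 65.6 (64.1 to 67). For Fads2 the log2 ratio was -1.26 for miR-93-5p over scr, -1.28 for mutant over scr and 0.02 between them. In fragments the ratios over scr were 1.43 and 1.59 for Fads2, the opposite sign, and 1.39 and -0.47 for Fads1, so the lower FPKM of miR-93-5p is not shared by the other measure for either gene.

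Scd1, stearoyl-CoA desaturase, which makes monounsaturated fatty acids, was not among the 24 compared members, because no miR-93-5p locus matched it (mm9 chr19:44468940-44482199). In scr 1 locus covered the gene, at 25.6 FPKM (24.3 to 27). The mutant locus, which also covered it, had 1.07 FPKM (0.914 to 1.22). In miR-93-5p the single locus inside the gene, 1249 bp long, was listed at 0.445 FPKM (0.207 to 0.682). The gene held 1398, 14 and 195 implied fragments in scr, miR-93-5p and mutant. After scaling, scr was 102-fold above miR-93-5p (95% counting interval 60.4 to 173) and 9.41-fold above mutant (8.1 to 10.9), and mutant was 10.9-fold above miR-93-5p (6.32 to 18.7). Among the compared enzymes, Mvk, Cyp51, Msmo1, Acaca, Fasn and Fads2 did not share the order scr, mutant, miR-93-5p in FPKM, and the others did. Of those others, Acat2, Sqle, Nsdhl, Dhcr7, Acly and Fads1 did not keep it in implied fragments. The share of all genes with this order was not calculated. A link between these genes was not tested. The Scd genes lie in a cluster of close paralogs on this chromosome, and reads shared between them cannot be told apart here; Scd2 had no mm9 locus to set beside Scd1.

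Genes of the same pathways that are not members did not move as a block. Of 6 other sterol synthesis genes the median log2 ratio over scr was 0.18. Sc5d, the sterol desaturase just before Dhcr7, stood at 18, 33.5 and 18.3 FPKM and Ebp, the sterol isomerase, at 69.9, 94.9 and 83.7. In FPKM both were highest in miR-93-5p. The log2 fragment ratio over scr was 0.33 for Ebp but -2.35 for Sc5d, the opposite sign to its FPKM. Of 12 genes of sterol uptake, export and sensing, 6 were compared, with a median of 0.25 over scr and none past 2-fold. Mbtps1, the site-1 protease that cuts SREBPs, stood at 30.9, 42.3 and 37.4 FPKM, with 5 implied fragments in mutant, and Npc1, which moves cholesterol out of lysosomes, at 8.19, 10.4 and 7.42. Abca1 and Abcg1, the sterol exporters, named after their values were seen, had no fragments in any library.

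Of 16 other genes of fatty acid and lipid synthesis, 11 were compared and none passed 2-fold, with a median of -0.12 over scr. The citrate carrier Slc25a1, which feeds Acly, stood at 50.6, 33.4 and 43.7 FPKM, but its log2 ratio of miR-93-5p over scr was -0.58 in FPKM and 0.31 in fragments. The genes that burn fatty acids lay mostly on the other side: 8 of 10 were compared, with a median of 0.45 over scr and 0.14 over mutant, and 5 of 8 had intervals above both other libraries (15.3% of all genes). Hadhb and Hadha, the subunits of the mitochondrial trifunctional protein, stood at 48.1, 97.6 and 88.8 FPKM and at 59.7, 101 and 91.5. Acadvl, the very-long-chain acyl-CoA dehydrogenase, stood at 36.4, 58.9 and 44.5. Cpt1a, the gate of entry to mitochondria, differed from them and was high in scr in FPKM (86.7, 49.1 and 48.2), although its log2 fragment ratio over scr was 1.54 for miR-93-5p. Measured in fragments, the oxidation medians were 0.24 against scr and -0.07 against mutant.

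The pulldown asked which mRNAs are recovered with the microRNA. Of the 29 members, 15 had a matched locus in all 3 pulldown libraries, and 25 had at least 3 fragments in each. Since the miR-93-5p library has short models, fragments summed over each gene and scaled between libraries are given first. On that scale 3 of 25 members were 2-fold or more above scr in miR-93-5p (21.5% of all genes) and 11 of 25 as far below it (22.6%). The median log2 ratio over scr was -0.48 for 11 sterol enzymes, -1.13 for 8 fatty acid enzymes and 0.42 for the 6 sensing and transport genes, against 0.01 for 8757 genes. Over mutant they were -0.38, 0.05 and 0.47, against 0.00. The sensing and transport genes were split: over scr, Srebf1 was at -1.80, Scap at -1.38 and Srebf2 at -0.13, while Insig1, Insig2 and Stard4 were above scr. The 3 members 2-fold or more above scr were Insig1, Insig2 and the sterol enzyme Cyp51, and no fatty acid enzyme was among them.

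Insig2 had the largest ratio, with 138, 775 and 459 scaled fragments, and its FPKM was 5.88 (4.96 to 6.80), 22.3 (20.4 to 24.2) and 19.4 (17.7 to 21.0). Insig1 had 344, 857 and 613 scaled fragments and FPKM of 16.2, 19.4 and 24.8. Stard4 had 319, 638 and 458 and FPKM of 5.60, 8.59 and 8.50. For these 3 genes both the miR-93-5p and the mutant pulldown library were above scr in fragments. Both were also above scr in FPKM with their bounds apart, as for 19% of all genes, so mutant shares the difference from scr. Cyp51 had the same pattern, with 483, 1392 and 1205 scaled fragments. In total RNA, Insig2 was also higher in miR-93-5p than in scr, as given above.

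Fdft1, with the lowest FPKM ratio over scr of the compared members in total RNA, was highest in scr in the pulldown too, with 513, 247 and 280 scaled fragments. Idi1 had 311, 91.0 and 1344, so mutant was high and miR-93-5p low. Scd2, the Scd1 paralog measured in the pulldown but not in RNA-seq, had 4592, 1556 and 4738 scaled fragments and 78.1 FPKM (75.9 to 80.2), 36.5 (34.4 to 38.6) and 66.9 (65.1 to 68.6). It was the only member whose fragments per FPKM agreed within 1.5-fold across the pulldown libraries. Scd1 had 449, 202 and 268 scaled fragments in the pulldown. Before scaling, its miR-93-5p pulldown library held 152 implied fragments, where the RNA-seq library of miR-93-5p held 14. The measures disagreed for Sqle: its FPKM of 18.4, 44.5 and 12.3 puts miR-93-5p highest, while its scaled fragments of 541, 225 and 361 put it lowest. In FPKM, the miR-93-5p interval was below scr for 9 of 15 members (51.1% of all genes) and above it for 5 (23.6%).

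**Figure D3:**
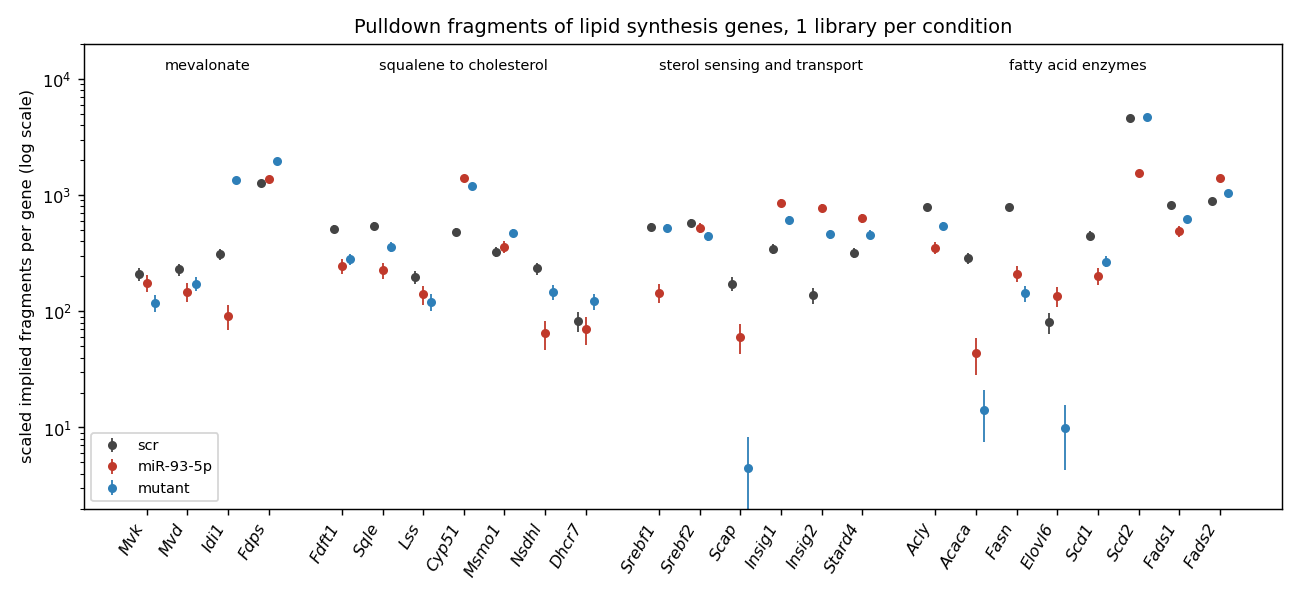
Scaled implied fragments per gene (log axis) of the 25 members with at least 3 fragments in each pulldown library, 1 library per condition, with 95% counting intervals. Insig1, Insig2, Stard4, Cyp51, Fdps, Msmo1 and Fads2 are lowest in scr, while Scd2 is at 4592 in scr and 4738 in mutant and at 1556 in miR-93-5p.

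H3K4me3 marks active promoters, and in scr a peak lay on all 25 members with an mm9 locus, against 56.3% of all genes. These 25 all had a matched RNA-seq locus in scr, as 9225 genes did, so the shares do not compare genes of like expression. In miR-93-5p 24 of 25 members had an H3K4me3 peak, and 24 had one in both conditions (55.3% of all genes). In scr 1 end of the RNA-seq model lay in an H3K4me3 peak for 24 of 25 members and in miR-93-5p for 23 of 24, with Insig2 the exception in each. Peak scores end in many ties at 3100 and were not compared between libraries.

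Scd1 was the member that had its H3K4me3 peak in scr alone, as did 1% of all genes. That peak (mm9 chr19:44480719-44483613) spans the high-coordinate end of the gene, is 2895 bp wide and has a score of 604. The nearest miR-93-5p peak lay 16784 bp away. Of 407 genes whose best scr peak scored from 300 to 1000, 20 (4.91%) had no peak in miR-93-5p. The gene with 14 fragments of RNA in miR-93-5p was thus also the one without a deposited H3K4me3 peak there, and neither H3K27me3 nor H3K9me3 peaks were listed on it in either condition.

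**Figure D4:**
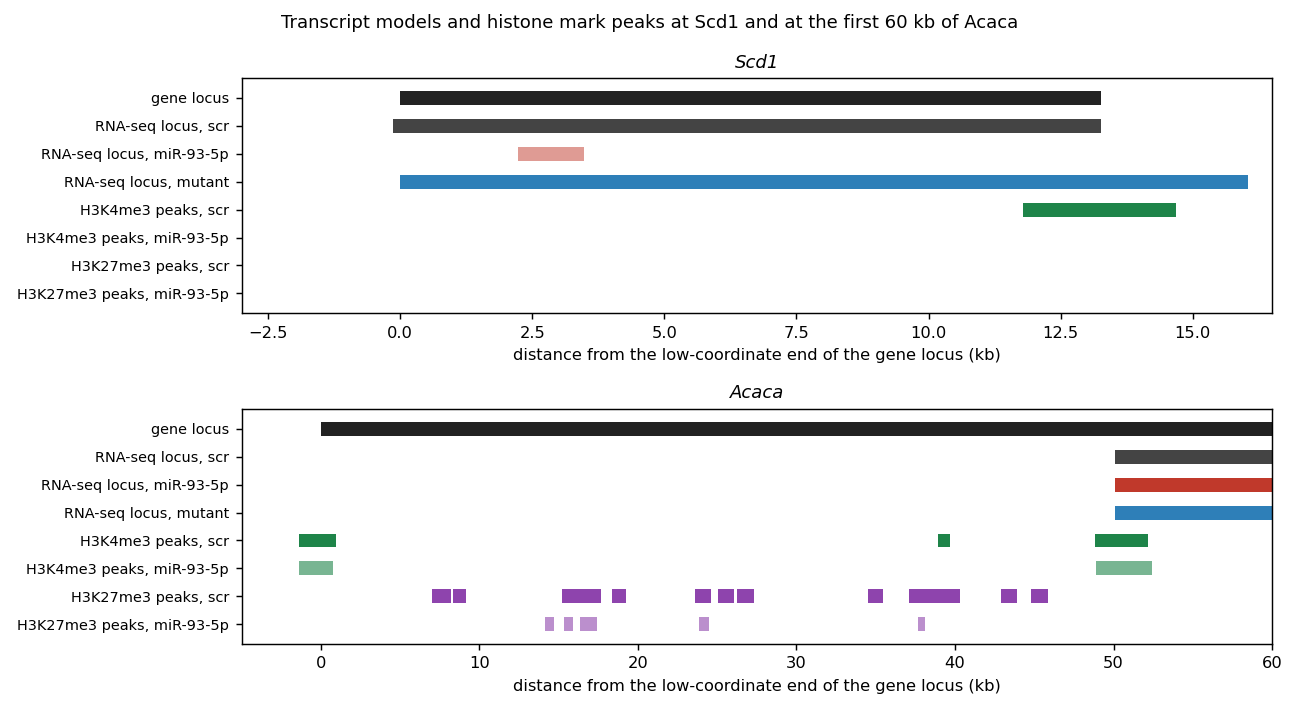
RNA-seq loci and peaks of H3K4me3 and H3K27me3 at Scd1 (upper) and the first 60 kb of Acaca (lower), with distance from the low-coordinate end of the gene in kb. The H3K4me3 peak of Scd1 is listed in scr and not in miR-93-5p, and the Acaca RNA models of all 3 libraries begin inside its far H3K4me3 peak, after the stretch that carries H3K27me3 peaks.

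H3K27me3, the Polycomb mark of silent chromatin, was listed on Acaca alone of the 25 members, against 20.3% of all genes in scr and 19% in miR-93-5p. Acaca (mm9 chr11:83943173-84215153) is known to have alternative promoters. Strong H3K4me3 peaks lay at its annotated start, from -1375 to 936 bp in scr, and again from 48802 to 52176 bp inside the gene. The RNA-seq models of scr, miR-93-5p and mutant began 50109, 50108 and 50074 bp inside the gene, within that inner peak. The H3K27me3 peaks of scr lay between these, from 7036 to 45861 bp, where scr also had a small H3K4me3 peak of 744 bp. There were 12 of them over 14673 bp in scr and 5 over 3204 bp in miR-93-5p, or 21.8% of the length. The whole H3K27me3 list covered 60013714 bp in scr and 23684648 bp in miR-93-5p, 39.5% of the length, with a median peak width of 1049 against 473 bp, so peaks were shorter throughout. For Acaca RNA the FPKM intervals of the 2 libraries overlap, as given above, with a log2 ratio of -0.11 over scr. In fragments the ratio was -0.32, with a counting error of 0.04.

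H3K9me3, a mark of heterochromatin, lay on Srebf2 with 1 peak in scr and 2 in miR-93-5p, and on Acaca with none and 1. The whole list grew from 15888 to 25879 peaks, and 20.2% of all genes had a peak in miR-93-5p against 15.4% in scr. Srebf1 carried H3K4me3 at 2 places in both conditions, and its RNA models ended within the one nearer to its high-coordinate end, 1975 bp short of that end in scr and 1978 bp in miR-93-5p. Srebf1 is known to make its SREBP-1a and SREBP-1c transcripts from separate starts, and the loci here do not separate them.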

How the data were processed

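The members and all gene lists were chosen with earlier results of these data known. Each library's RNA-seq and pulldown loci carry FPKM with lower and upper bounds, as deposited by the authors; TopHat2, Cufflinks and Cuffdiff are named in the submitters' processing notes. Peaks carry a score per peak as deposited by the authors, with Bowtie and MACS in the same notes, which name mm9. The labels give no replicate numbers. The input libraries were not analysed here.

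RNA-seq loci and peaks were assigned by mm9 gene loci, and pulldown loci that lack a gene identifier by GRCm38.p6, because their ends fall on genes of that build. A locus was given to a gene if the pair were mutual best overlaps and shared at least 0.5 of their joint length. Ratios over genes matched in all 3 libraries, at a mean of 1 FPKM or more, are log2(FPKM + 1), over 8425 in RNA-seq and 5246 in the pulldown. Where bounds are taken to be 2 standard errors, their width gives an implied number of fragments, compared with 10 added after scaling to a median ratio of 1; isoform sharing widens bounds and lowers it. Summed fragments add every locus with most of its length inside the gene. A peak counted with at least 1 bp of overlap. With 1 library per condition no test was run; the named genes are the listed members and lists. The calculation was tested on simulated data. Python 3.11.15, pandas 2.3.3, numpy 2.4.6 and matplotlib 3.10.9 were used. Alternatives were a pseudocount of 0.1, other FPKM minimums, shared lengths, scaling, fragments, a 1.5-fold threshold and other peak rules. A few genes of the other pathway lists are not reported here.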

Additional observations from a re-analysis of the deposited data

How the results depend on the processing

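Of 83 recomputed medians and counts, 63 moved by less than the counting error (for counts, under 1.5-fold), 17 moved more and 3 changed sign. In RNA-seq the sterol median over scr was -0.41 with implied and -0.40 with summed fragments, and the fatty acid median -0.31 with either. The fatty acid median over mutant was -0.17 both with a shared length of 0.9 and in the genes with like fragments per FPKM, a setting chosen after seeing the data, and turned to 0.12 with implied and 0.029 with summed fragments; the cause was not tested. The count at least 2-fold below scr was 10 of 24 at 1.5-fold (9.47% of all genes) and 1 among the 13 genes with like fragments (2.35%). In the pulldown the sterol median over scr, -0.92 in FPKM, was -0.44 after centring each library, -0.46 with implied and -0.48 with summed fragments, and over mutant, -0.73 in FPKM, it was -0.30, -0.17 and -0.38. The pulldown fatty acid median over scr, -1.22 in FPKM, was -0.74 centred and -2.82 with implied fragments; over mutant, -0.91 in FPKM, it was -2.28 with implied and turned to 0.046 with summed fragments. No sterol enzyme had like fragments in the pulldown, so that setting gave no value there. With most of a peak required inside the gene, 18 of the 21 members with such a peak had it in both conditions (45.3% of all genes), against 24 of 25 otherwise. No paired analysis was possible because each condition has 1 library and the labels give no replicate numbers.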
